A study of Mus musculus with 4 samples.

Results

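The miR-181 family was measured in mouse embryonic fibroblasts (MEFs) of strain C57BL/6J on single-colour (Cy3) Agilent miRNA arrays. The 4 array names mmu-miR-181a, mmu-miR-181b, mmu-miR-181c and mmu-miR-181d were taken by name, with all of their 8 probes, out of 650 miRNA names on the array. Lats2-/- (KO) MEFs were compared with Lats2+/+ (WT) littermate MEFs, and no cells were treated. Lats2 encodes a kinase of the Hippo pathway, and both of its alleles are disrupted in the KO cells. The 2 KO arrays came from clone #112-C at population doubling levels (PDL) 70 and 96, and the 2 WT arrays from clone #112-K at PDL 68 and 90. Below, KO replicates 1 and 2 are PDL 70 and 96, and WT replicates 1 and 2 are PDL 68 and 90. Each genotype was thus 1 clone, so that genotype and clone cannot be told apart, and p-values measure only the spread between cultures of 1 clone at 2 times. The sources used here do not name the sex or age of the embryos. The free text of the labels writes the KO as LAT2-/-, whereas its genotype field writes Lats2-/-.

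miRNAs are short RNAs that guide the Argonaute silencing complex to messenger RNAs, mostly through pairing of the seed, the stretch near the 5′ end of the miRNA. The miR-181 family is a conserved vertebrate family made from paired hairpins, and in mouse each pair lies in 1 of 3 clusters. miR-181a and miR-181b are made at both of the first clusters, whereas miR-181c and miR-181d are made at the remaining cluster alone. The family is best known from lymphocyte development, in which miR-181a tunes the sensitivity of T cell receptor signalling, and it is also abundant in brain.

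The mature sequences are shown because they carry the question of the array design, namely which member a probe can report. All 4 share 1 seed and differ downstream of it. The sequences are those of RefSeq (GRCm38.p6), 5′ to 3′, with the seed (bases 2 to 8) in capitals.
miR-181a: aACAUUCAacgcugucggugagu
miR-181b: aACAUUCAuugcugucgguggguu
miR-181c: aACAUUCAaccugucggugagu
miR-181d: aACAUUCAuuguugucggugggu

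Of 1679 mature mouse miRNA names in the RefSeq table, 4 carried this seed, and they were the 4 members. The members pair up by similarity across the clusters rather than within them. miR-181a and miR-181c were identical at 22 of 23 aligned positions, and miR-181b and miR-181d at 22 of 24. Members made from the same cluster were less alike, with 20 of 24 for miR-181a and miR-181b and 18 of 23 for miR-181c and miR-181d.

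The array reads the downstream part of each miRNA. Each member had 2 probes, and all 8 were fully complementary to the RefSeq sequence of the member that they are named for. The brighter probe of each member, which represents it here, is shown as DNA, 5′ to 3′. Capitals mark the bases that are not the exact complement of the most similar other member in an ungapped alignment. That member was miR-181b for the miR-181a and miR-181d probes, miR-181d for the miR-181b probe and miR-181a for the miR-181c probe. A G or T that faces U or G counts as a mismatch here, although such bases can form a wobble pair. The capital G of the miR-181b probe, which faces U in miR-181d, is such a base. So are both capitals of the miR-181a probe, where T faces G and G faces U in miR-181b.
miR-181a probe: acTcaccgacagcG
miR-181b probe: acccaccgacaGca
miR-181c probe: actcaccgacagGTtGAaT
miR-181d probe: acccaccgacaAcaatg

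The miR-181b probe (14 bases) and the miR-181d probe (17 bases) each differed from the other member by 1 base. The miR-181a probe (14 bases) had 2 mismatches to miR-181b and, with an unbroken run of 12 paired bases, 2 mismatches to miR-181c. The miR-181c probe (19 bases) had 5 mismatches to its closest relative, miR-181a, but only because the alignment was ungapped. With a gap, miR-181a and miR-181c were identical at 22 of 23 positions. This probe can thus also pair with miR-181a around 1 unpaired base, and it is not well separated from it. Probes can therefore share signal within the family, and the part of cross-hybridisation in the values below was not tested. In addition, probes differ in length and labelling, so that only the difference between KO and WT was compared between members, never a level.

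The files place the probes on mouse build mm9. The miR-181a probe lay at chr1:139863054-139863067 and chr2:38708270-38708283, and the miR-181b probe at chr1:139863236-139863249 and chr2:38709374-38709387. A signal for either member thus sums both clusters. The miR-181d probe lay at chr8:86702628-86702643 and the miR-181c probe at chr8:86702792-86702809, with 148 bases between them by these positions (the spans given for both are 1 base shorter than the probes). In the RefSeq annotation (GRCm38.p6), the chromosome 2 hairpins lie within the nuclear receptor gene Nr6a1 and the overlapping non-coding gene Nr6a1os, and no annotated gene other than the hairpins covers those on chromosomes 1 and 8. The chromosome 8 pair lies between Nanos3, a germ cell gene, and Mir23a, the first hairpin of the Mir23a, Mir27a and Mir24-2 cluster. The miR-181 pair is on the minus strand.

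The arrays themselves gave the following frame. The scanner software flags each spot as well above background or not, and a miRNA passed on an array if more than the share 0.5 of its probe's spots had that flag. By this rule, 157 and 161 names in KO against 125 and 129 names in WT were well above background. The 159 names that passed on both arrays of at least 1 genotype were tested with limma, a linear model that pools the spread over miRNAs. Of these, 92 (57.9%) differed between KO and WT at an adjusted p under 0.05, with 69 higher and 23 (14.5%) lower in KO. The split was 38 higher and 36 lower with median scaling, and 51 higher and 42 lower with quantile normalization. The median difference of the 159 was 0.31 (log2) as reported and -0.09 with median scaling, so that small differences depend on the scaling. Of 7 fibroblast miRNAs, 6 were well above background on all 4 arrays, including miR-21, miR-143, miR-199a-3p, miR-214 and miR-29a, whereas none of 6 blood, 7 epithelial, 2 endothelial or 4 neural miRNAs was on any array. Of 4 muscle miRNAs, 1 (miR-206) was, on all 4 arrays, as was miR-155, which the blood list does not hold. Of the 6 fibroblast miRNAs, miR-199a-3p was higher in KO by 0.32 (limma adjusted p = 0.0464) and the others did not pass the test.

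miR-181d, from chromosome 8, was lower in the KO cells, where it was not well above background. Its scaled mean signals were 7.25 and 6.10 signal units in KO replicates 1 and 2, and 24.6 and 25.7 units in WT replicates 1 and 2. Both WT arrays were far above both KO arrays, and the groups did not overlap. On the log2 scale these were 2.86 and 2.61 in KO against 4.62 and 4.68 in WT, a difference of -1.92 ± 0.12 (SE, n = 2 per group, 95% confidence interval -2.27 to -1.57, limma adjusted p = 0.00176). The difference was the third lowest of the 159 and 1 of 8 called reductions of at least 2-fold. miR-181d was among the 159 through its WT arrays alone, so that this place is a description and not support. Since neither KO array was well above background, the size of the fold is known only as a bound. Against the lowest signal that counted as well above background on each KO array, with all means taken on the log2 scale, miR-181d was at least 1.82-fold higher in WT. Normexp background correction was run with an added offset of 50 signal units, which is above the mean signal of every member on every array. With it, the bound was at least 1.22-fold, and the difference shrank to -0.44 but was still called (limma adjusted p = 0.00579).

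The spots behind these means are repeats of the probe on the same arrays, so that they are neither replicates of a genotype nor separate support. In WT, 8 of 8 and 8 of 9 used spots of the miR-181d probe were well above background, against 0 of 10 on each KO array. The WT spots ranged from 15.6 to 31.7 units and the KO spots from 2.74 to 10.1 units, without overlap. As a second background, the 99th percentile of the negative control spots was 7.82 to 11.5 units over the 4 arrays. In WT replicates 1 and 2, 8 of 8 and 9 of 9 used spots exceeded it, and 1 of 10 spots did so on each KO array. The shorter miR-181d probe was dim everywhere but ran the same way, with 1.14 and 1.98 units in KO against 4.16 and 7.25 units in WT.

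**Figure D1:**
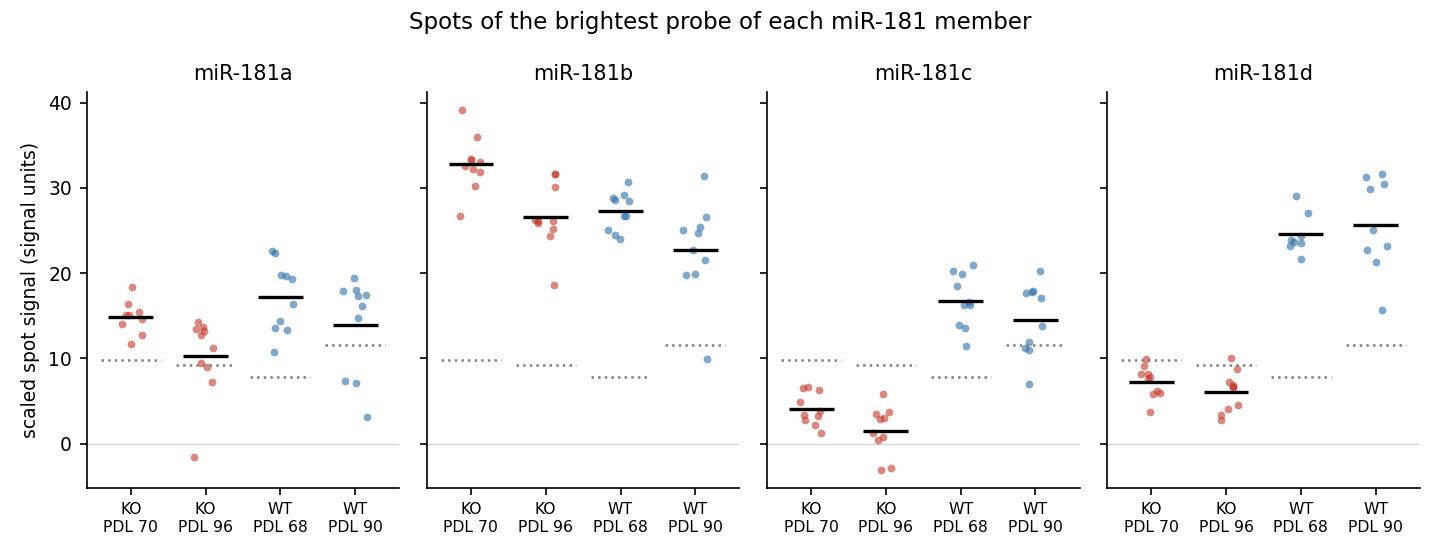
Scaled signal (signal units, linear axis) of every used spot of the brightest probe of each member, by array. Points are spots (red KO, blue WT), black bars the mean of the spots, and dotted lines the 99th percentile of the negative controls of that array. Most miR-181c and all miR-181d spots stood above the dotted line in WT and, with 2 exceptions for miR-181d, below it in KO, whereas nearly all miR-181b spots stood above it on every array.

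miR-181c, the other member of the chromosome 8 cluster, ran the same way at the edge of detection. Its scaled mean signals were 4.11 and 1.55 units in KO against 16.8 and 14.6 units in WT. The groups did not overlap, and KO replicate 2 was the lowest. In WT replicate 1, 7 of 10 spots were well above background, and in WT replicate 2 exactly 5 of 10 were, 1 short of the rule, so that miR-181c was not among the 159. The scanner software's own flag called it detected on both WT arrays and on neither KO array. With that flag as the filter, 184 miRNAs were tested, of which 24 (13%) were lower in KO, and the difference of miR-181c was -2.63 ± 0.56 (SE, n = 2 per group, 95% confidence interval -4.33 to -0.94, limma adjusted p = 0.0325). However, miR-181c passed this filter through the WT arrays alone. Without any filter the limma adjusted p was 0.222, which misses the threshold. By the rule used for miR-181d the bound was at least 1.13-fold higher in WT, but 1 of the 2 WT arrays behind it did not pass the background rule itself, and the bound gave no fold with no scaling (0.98), as the mean of all probes (0.43) or with the percentile over all probes (0.21). No KO spot of the miR-181c probe exceeded the 99th percentile of the negative controls, against 10 of 10 and 7 of 10 in WT.

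The size of the miR-181c difference rested on signals near 0. With values under 8 signal units set to 8, a level near the negative controls, it was -0.97. Under normexp background correction, with its offset of 50 units, the difference was -0.34. The shorter miR-181c probe was at or near background on all 4 arrays, with means of -0.59 and -0.31 units in KO against 4.94 and -0.04 units in WT.

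miR-181b, from chromosomes 1 and 2, was well above background on all 4 arrays and was the only member that was. Its scaled mean signals were 32.8 and 26.6 units in KO against 27.3 and 22.7 units in WT. KO replicate 2 fell below WT replicate 1, and the groups overlapped. The difference was 0.25 ± 0.17 on the log2 scale (SE, n = 2 per group, 95% confidence interval -0.26 to 0.75, limma adjusted p = 0.283), which did not pass the test. Its sign followed the scaling, with -0.15 after median scaling, -0.54 after quantile normalization (limma adjusted p = 0.0521) and -0.00 after normexp background correction. Relative to the median of the tested miRNAs, it was -0.06 as reported. Median scaling and no scaling give the same value by construction, since they shift all miRNAs of an array alike. With normexp background correction the relative value was -0.12. With quantile normalization it was -0.67 relative to the median. As reported, miR-181b lay near the middle of the tested miRNAs, at rank 73 of 159 from the lowest. Its spots were above the 99th percentile of the negative controls for 10 of 10, 10 of 10, 10 of 10 and 9 of 10 in KO replicates 1 and 2 and WT replicates 1 and 2. The shorter miR-181b probe gave 11.5 and 11.6 units in KO against 8.92 and 10.52 units in WT.

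miR-181a, the member with the most studied functions, was dim in these fibroblasts. Its scaled mean signals were 14.8 and 10.3 units in KO against 17.2 and 13.9 units in WT. KO replicate 1 was above WT replicate 2, and the groups overlapped. Well above background were 1 of 9 and 1 of 10 spots in KO against 7 of 10 and 5 of 10 spots in WT, so that miR-181a passed the background rule on WT replicate 1 alone and was not among the 159. In contrast to miR-181c, the scanner software called it detected on all 4 arrays, and 9 of 9 and 7 of 10 KO spots exceeded the 99th percentile of the negative controls, against 10 of 10 and 7 of 10 WT spots. With the detection flag as the filter, the difference was -0.33 ± 0.25 (SE, n = 2 per group, 95% confidence interval -1.08 to 0.42, limma adjusted p = 0.342), which did not pass the test. The shorter miR-181a probe was at 0.69 and 0.14 units in KO against 0.56 and 3.60 units in WT, in the range of the negative controls.

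Of the chromosome 8 members, miR-181d was thus called lower in KO. miR-181c was called under the detection flag filter, which it passed through the WT arrays alone, and not without a filter (limma adjusted p = 0.222). Neither a/b member passed the test. Of the tested members, 1 of 2 did not overlap between KO and WT, against 79.9% of the 159 miRNAs, and with the detection flag as filter 2 of 4 did not, against 77.7% of the 184. Non-overlap was thus common on these arrays and is not in itself a result about the family. Called reductions made up 14.5% of the 159 and 13% of the 184, as given above. Like miR-181c, miR-181d passed its filter through the WT arrays alone, so that neither call is set against these shares.

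**Figure D2:**
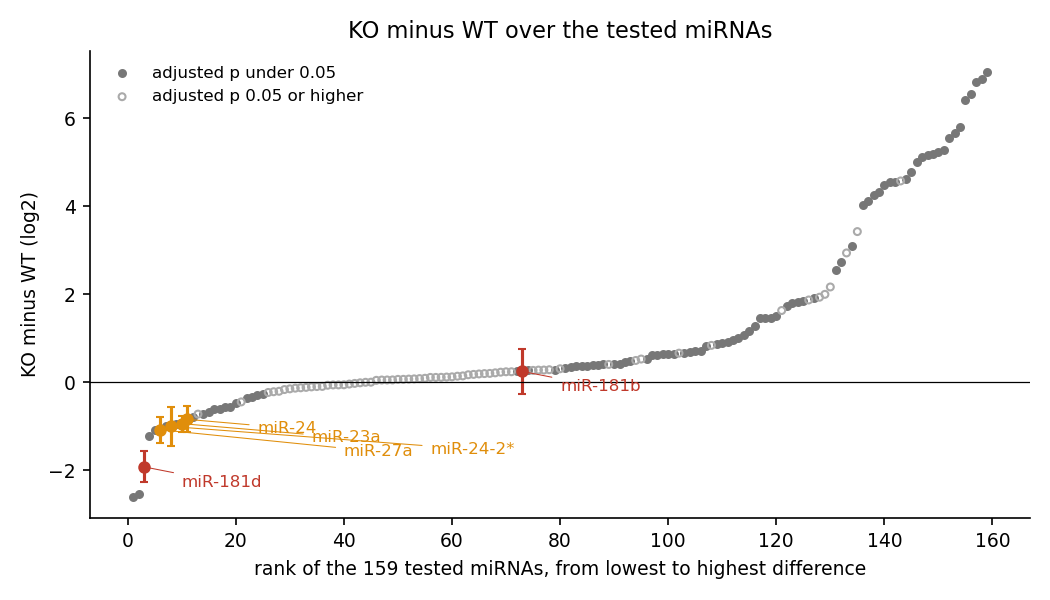
KO minus WT (log2, linear axis) of the 159 tested miRNAs, ordered by the difference. Filled grey points passed an adjusted p of 0.05 and open points did not. Coloured points with 95% confidence intervals are the tested miR-181 members (red) and chromosome 8 neighbours (orange). miR-181d, which passed the background rule on the WT arrays alone, was the third lowest, and the interval of miR-181b crossed 0.

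Apart from the floor, a comparison within each array does not depend on scaling whole arrays by a factor. The log2 signal of miR-181d minus that of miR-181b, which contains the different brightness of the probes, was -2.18 and -2.13 in KO against -0.15 and 0.18 in WT. The change of miR-181d was thus 2.17 lower on the log2 scale than the change of miR-181b (KO minus WT -2.17, n = 2 per group, two-sided exact permutation p = 0.333, the smallest that 2 against 2 arrays can give). With the KO signals of miR-181d raised to the lowest signal well above background, the value was -1.12. Under 10 other ways of computing the signal and when each array was left out, it stayed below 0, from -2.33 to -0.43, with the latter under normexp background correction. The second such pair, chosen after the values were seen, was miR-181c minus miR-181a. It was -1.85 and -2.73 in KO against -0.04 and 0.07 in WT, a KO minus WT value of -2.31 (two-sided exact permutation p = 0.333, again the smallest possible). It was -0.19 with normexp background correction, -0.64 with a floor of 8 units and -1.27 as the mean of all probes. Neither miR-181c nor miR-181a was well above background on a KO array, so that no bound stands behind this value. The permutation test over 2 against 2 arrays cannot reach a p under 0.05 for either pair.

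**Figure D3:**
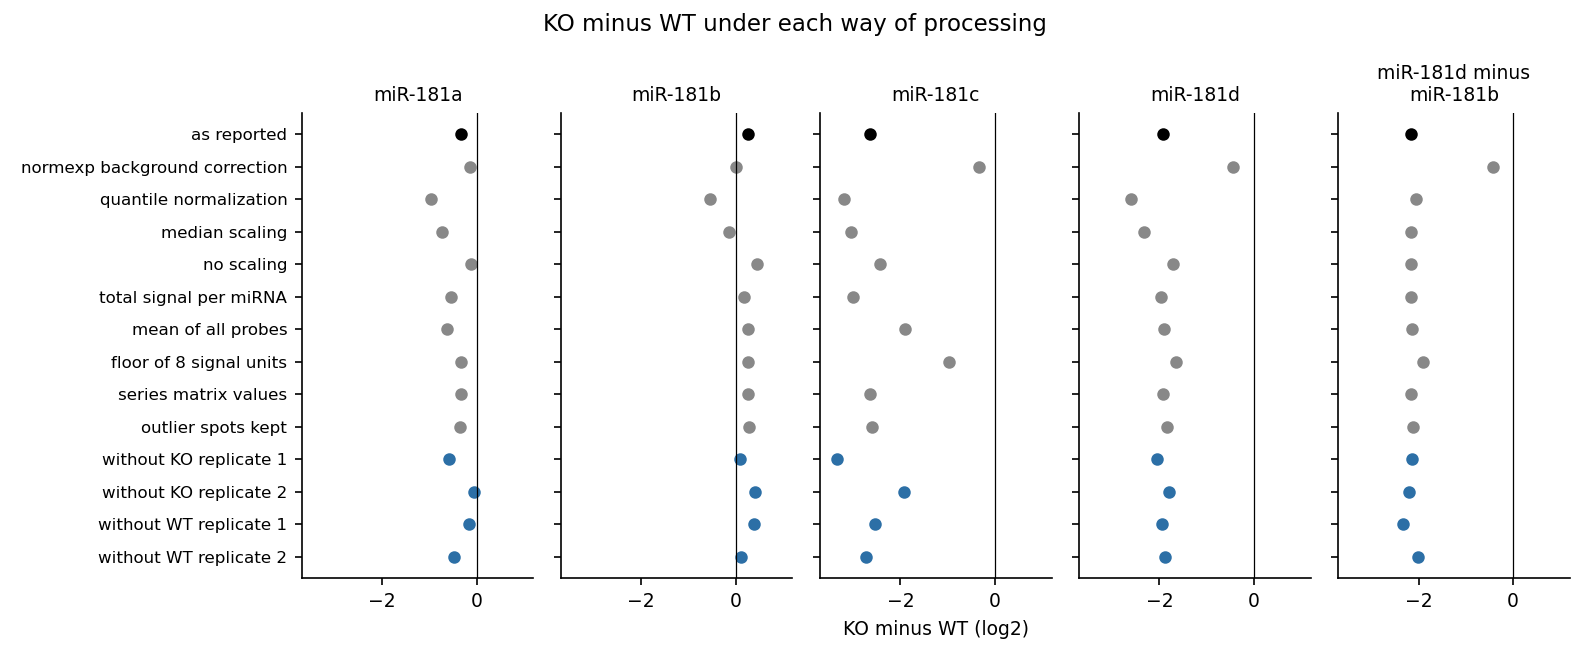
KO minus WT (log2, linear axis) of the members and of the within-array value of miR-181d minus miR-181b, for each way of processing the values. The black point is the value as reported, grey points are other processing and blue points leave out 1 array; scaling by the percentile over all probes is not drawn. miR-181a, miR-181c, miR-181d and the within-array value stayed below 0, whereas miR-181b lay on both sides of 0.

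The starred strands are processed from the other arm of the hairpins and can tell the a/b clusters apart, which the mature strands cannot. The array named 2 of them, miR-181a-1* from chromosome 1 and miR-181a-2* from chromosome 2. Their RefSeq sequences, with bases 2 to 8 in capitals, differ at a few positions.
miR-181a-1*: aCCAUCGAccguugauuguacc
miR-181a-2*: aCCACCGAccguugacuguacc

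Neither was well above background on any array, and none of their spots exceeded the 99th percentile of the negative controls. The log2 signals of miR-181a-1* were 1.67 and 1.79 in KO against 0.79 and 2.78 in WT, and those of miR-181a-2* were at the floor on 3 arrays and 2.03 in WT replicate 2. The 4 probes of miR-181a-2* reach 3 bases past the 3′ end of the RefSeq sequence, whereas both of miR-181a-1* match it in full. The array therefore did not show which of the a/b clusters gave the miR-181a and miR-181b signal.

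The nearest neighbours of miR-181c and miR-181d on chromosome 8 are the bright miRNAs of the miR-23a cluster. The miR-23a probe lay at chr8:86732466-86732482 (mm9), 29822 bases from the end of the miR-181d probe. Its hairpin is on the plus strand, opposite to that of the miR-181 pair. The 4 names of this cluster looked at, miR-23a, miR-27a, miR-24 and miR-24-2*, were all called lower in KO. Their median difference was -0.97. Of all 159 tested miRNAs, 14.5% were called lower. miR-24-2* passed the background rule on the WT arrays alone, so that the 4 are not set against this share. miR-23a was at 10.81 and 10.82 (log2) in KO against 11.78 and 11.73 in WT, a difference of -0.94 ± 0.06 (SE, limma adjusted p = 0.00203). miR-27a was at 10.35 and 10.49 in KO against 11.43 and 11.56 in WT, a difference of -1.08 ± 0.10 (limma adjusted p = 0.00454). The groups did not overlap for either, as for 79.9% of the 159 tested miRNAs, and each was well above background on all 4 arrays.

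Another mature miRNA of the cluster, miR-24, is also made on chromosome 13, and its difference was -0.84 ± 0.10 (limma adjusted p = 0.00836). The strand that only the chromosome 8 copy gives is miR-24-2*. It was at 3.40 and 3.13 (log2) in KO against 4.36 and 4.17 in WT, a difference of -1.0 ± 0.14 (limma adjusted p = 0.0129). As with miR-181d, it passed the background rule on each WT array and on no KO array, with a bound of at least 1.39-fold higher in WT. Of the 159 tested miRNAs, miR-181d and miR-24-2* were the 2 with this pattern, whereas 35 passed the rule on each KO array and on no WT array. The 2 tested chromosome 13 paralogues were lower as well, miR-23b by -0.61 (limma adjusted p = 0.0129) and miR-27b by -0.57 (limma adjusted p = 0.0335), while miR-24-1* was not tested. miR-23a with miR-23b and miR-27a with miR-27b are near-identical in sequence, so that their probes can share signal.

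**Figure D4:**
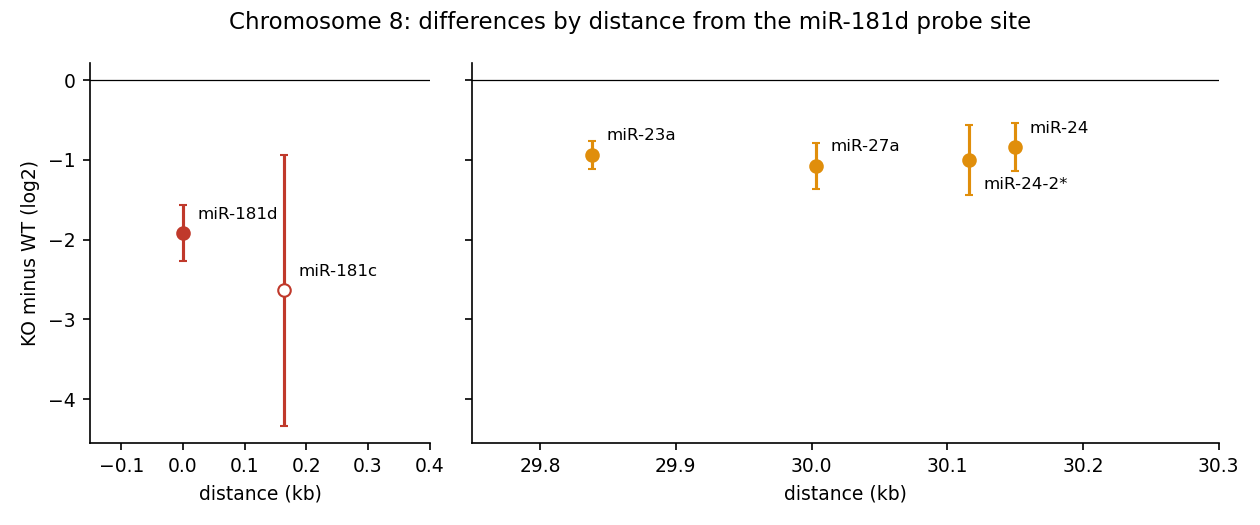
KO minus WT (log2, linear axis) of the 6 miRNAs looked at on the chromosome 8 stretch against the distance of their probe sites from the miR-181d probe (kb, 2 panels to the same y axis). Points are the difference with its 95% confidence interval (red miR-181, orange the miR-23a cluster), and the open point, miR-181c, was fitted with the detection flag as filter. All 6 lay below 0.

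Time in culture was the other variable. With genotype in the model, 0 of 159 miRNAs (0%) differed between the higher and the lower PDL after adjustment with limma, and 8 did at an unadjusted p under 0.05. The log2 signal of miR-181a went from 3.89 to 3.36 in KO and from 4.11 to 3.79 in WT with increasing PDL. That of miR-181b went from 5.04 to 4.73 and from 4.77 to 4.50, and that of miR-181c from 2.04 to 0.63 and from 4.07 to 3.86. These 3 members were lower at the higher PDL in both genotypes. Of the 159 tested miRNAs, 41 (25.8%) were, with miR-181b among them, whereas miR-181a and miR-181c are not among the 159. The estimate was -0.28 for miR-181b (limma adjusted p = 0.826), -0.42 for miR-181a and -0.81 for miR-181c (both limma adjusted p = 0.827 with the detection flag as filter), and -0.09 for miR-181d (limma adjusted p = 0.887). None passed the test, although 1 degree of freedom per miRNA leaves little power. The KO arrays were at slightly higher PDL than the WT arrays of the same order, 70 against 68 and 96 against 90. With PDL as a block, miR-181d was still lower in KO (limma adjusted p = 0.0128) and miR-181b still did not pass (limma adjusted p = 0.0944).

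**Figure D5:**
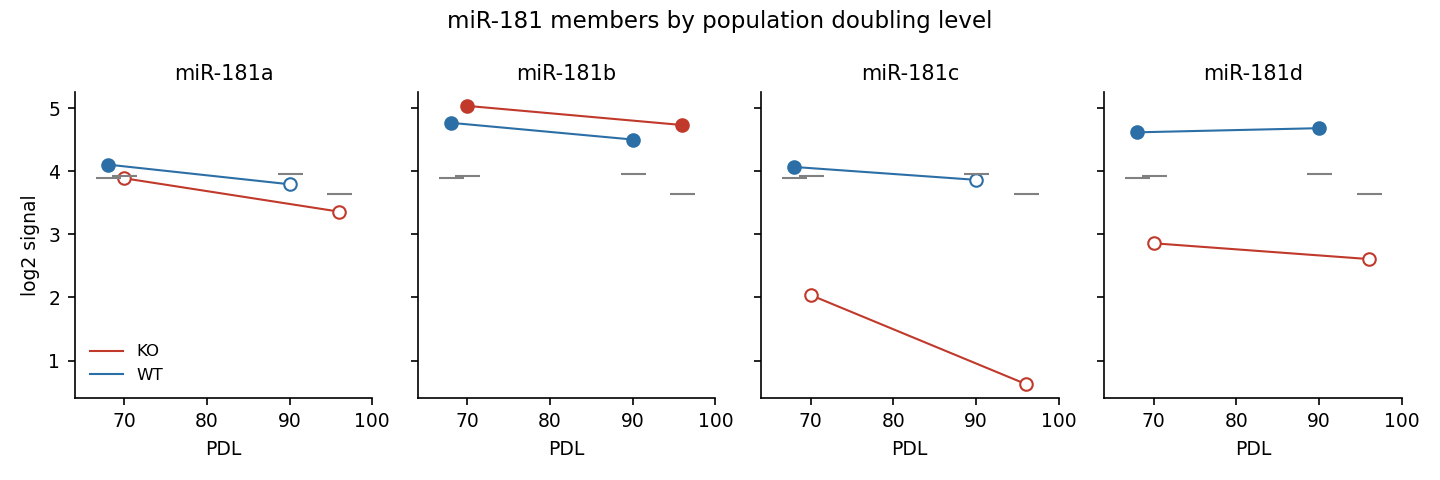
Log2 signal of the members (linear axis) against population doubling level. Lines join the 2 arrays of a genotype (red KO, blue WT), filled points were well above background, and grey dashes mark the lowest signal well above background on that array. The gap between KO and WT in miR-181d was present at both ends of the PDL range, and miR-181b stood above the dashes on every array.

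The miRNAs with the pattern most like that of miR-181b over the 4 arrays were found among the other 114 names well above background on all of them, by the root mean square difference of the centred log2 signals. They were miR-199b* (0.08), miR-28 (0.08) and the mouse cytomegalovirus probe mcmv-miR-M23-1-5p (0.09). Their KO minus WT differences were 0.28, 0.27 and 0.19, and none passed the test (limma adjusted p = 0.0767, 0.0770 and 0.180). All 4, with miR-181b, had their highest signal in KO replicate 1 and their lowest in WT replicate 2. The other members were not above background on enough arrays for such a comparison.

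Lymphoid, muscle and neural miRNAs are the company in which the family is usually met. Of 8 lymphoid and myeloid miRNAs, only miR-155, a miRNA of activated immune cells that fibroblasts also express, was well above background. Its log2 signals were 5.94 and 5.82 in KO against 4.33 and 4.50 in WT, higher in KO by 1.47 (limma adjusted p = 0.00248), and the 7 others, with miR-150, miR-223 and miR-451, were at or near the floor. Of 4 muscle miRNAs, miR-206 alone was well above background, with a difference of 0.13 (limma adjusted p = 0.534). Of 4 neural miRNAs, none was well above background on any array.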

How the data were processed

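Total RNA from 4 MEF cultures (2 KO, 2 WT) was hybridised to 4 arrays on 1 slide, read in 1 scan, with WT and KO at different positions. Per the file headers, the authors extracted each spot with Agilent Feature Extraction 10.5.1.1, and the deposited values are background-subtracted intensities on a linear scale, not normalized between arrays, beside total signals per miRNA and flags. The deposited series matrix holds the same intensity values, within 0.495%, with column medians of -0.585 and -0.581 units in the KO columns and -2.01 and 0.595 units in the WT columns.

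Of 13715 spots per array, the 13000 miRNA spots (1857 probes, 650 names) were used, without outlier spots. No miRNA spot was saturated. Spots of a probe were averaged, and arrays were brought to a common 75th percentile, taken over those 192 probes that passed the background rule on every array (531 and 562 units in KO, 488 and 458 in WT). A floor of 1 unit was applied before the log2 transform. The probe brightest over the arrays represented a miRNA. The genotypes were tested in R 4.3.3 by limma 3.58.1, two-sided, with Benjamini-Hochberg adjustment over all tested miRNAs, and the script was tested on simulated data. Precision is limited by having 2 arrays in a group. The methods' t-test, other background corrections, scalings, filters, floors and probe summaries, PDL as a block and leaving out each array were the alternatives.

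The named miRNAs were the members with all probes, starred miR-181 strands, the miR-23a, miR-27a and miR-24-2* neighbours and the 3 miRNAs nearest in pattern to each member well above background on all arrays; miR-24 and others are members of context or marker lists. Members and lists were chosen with earlier results of these data known. Replicate numbers follow record order and pair nothing. Array names are those of the design and can be old.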

Additional observations from a re-analysis of the deposited data

Results flagged for a closer look

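miR-181d moved in opposite directions with PDL in the 2 genotypes. Its log2 signal went from 2.86 to 2.61 in KO and from 4.62 to 4.68 in WT, so that the KO change minus the WT change was -0.32. Each genotype gave 1 pair of arrays, the KO signals were not well above background, and the difference was not tested.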

How the results depend on the processing

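The count of 92 miRNAs that differed between KO and WT became 0 with scaling by the percentile over all probes, 39 by the methods' t-test at a fold of 2 and an unadjusted p under 0.05, and 33 by that test after adjustment. It ranged from 37 to 89 when 1 array was left out: 39 without KO replicate 1 and 37 without KO replicate 2. The percentile over all probes lay near 0, at 2.98, 2.90, -0.10 and 4.66 units in KO replicates 1 and 2 and WT replicates 1 and 2, which makes that scaling unstable. Under it, miR-181d was at 0.82 (limma adjusted p = 0.816), miR-181a at 2.15 and miR-181c at -0.18. miR-181d was lower and called under 18 limma settings, the reported one included (limma adjusted p 0.000226 to 0.0256), of which 4 left out 1 array, so that the lone array of a genotype was assumed to vary like the other genotype's. It was not tested where all 4 arrays had to pass the background rule. miR-181b reversed to -0.0038 with normexp background correction, -0.54 with quantile normalization and -0.15 with median scaling. The cause was not tested. miR-181a was -0.97 with quantile normalization and -0.73 with median scaling, and ranged from -0.59 to -0.06 when 1 array was left out. miR-181c was -0.34 with normexp background correction, -1.89 as the mean of all probes and -0.97 with a floor of 8 units. The bound of miR-181d ranged from 0.27 to 2.99 over the alternatives, leaving aside total signal per miRNA, in which the KO signals themselves set it, and it gives no fold under scaling by the percentile over all probes or, at 0.85, as the mean of all probes. No miRNA was called between the PDLs under any alternative run. An equal share of spots for the background rule and the keeping of outlier spots were chosen after seeing the data. Replicate numbers follow record order and pair nothing. With PDL as a block, which compares KO with WT within the lower and within the higher PDL, 70 miRNAs were called between KO and WT.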
